A study of Rattus norvegicus with 12 samples.

Results

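The comparison set the left ventricle of rats fed a low sodium diet against the left ventricle of rats fed a normal sodium diet, both without infusion of angiotensin II (AngII). It held 6 of the 12 arrays of the series, chosen by their titles alone, with 3 arrays for each diet. The low sodium group consisted of male Sprague-Dawley rats given a 60% fructose diet with less than 0.01% NaCl for 8 weeks. The normal sodium group consisted of males of the same strain given a 60% fructose diet with 0.64% NaCl for 8 weeks. Fructose was therefore shared by both groups, and its own effect was not part of the comparison. The other 6 arrays came from rats on the same diets that received AngII at 200 ng/kg/min during the last 4 weeks; they entered the estimate of spread and a side-by-side reading at the end. Total RNA was hybridised to one-colour Agilent arrays, with 1 array of each group on each of 3 slides. The low sodium array always lay in position 3 of its slide and the normal sodium array in position 1, so slide position and diet cannot be told apart. The labels do not say whether an array held the RNA of 1 rat or of several, so p-values measure the spread between these arrays.

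Sodium restriction lowers extracellular volume and raises renin, AngII and aldosterone, while the ventricle answers wall stretch by releasing natriuretic peptides. Fructose feeding is used in rats to bring about insulin resistance and high blood pressure. Ventricular tissue holds cardiomyocytes, which burn mainly fatty acids, beside fibroblasts that make the collagen matrix, endothelial and smooth muscle cells of the vessels, and resident macrophages.

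Levels below are log2 signals minus the 75th percentile of the same array, so that 0 is the brightness of that percentile. A level can be compared between arrays for 1 gene, but not between genes. A difference is the mean low sodium level minus the mean normal sodium level on this log2 scale, with the standard error (SE) of the limma fit over all 12 arrays. A single value with ± is always such a difference and its SE. On the 6 arrays, between 63.2% and 76.3% of probes lay well above background. The tissue label was set beside muscle genes of the heart: Myl2, Myl3, Myh6, Tnni3 and Tnnt2, which encode sarcomere proteins, stood at 6.89 or higher on each of the 6 arrays. Their differences lay between -0.27 and 0.082. Not all of these genes are particular to the ventricle, and atrial genes are described below. The first normal sodium array had 88 non-uniform spots, against at most 3 on the other 5. Leaving out 1 array at a time moved the difference of 39 of the 123 genes named by over 1.5 times in some fit, and that of 19 genes when the first normal sodium array was left out.

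No single gene reached an adjusted p below 0.05 between the diets. Among 20022 probes tested by limma with Benjamini-Hochberg adjustment, 0 passed and the smallest adjusted p was 0.50, shared by 50 probes. At an unadjusted p below 0.05, 537 probes were higher on low sodium, which is 2.68% of those tested, and 880 were lower, which is 4.4%. Leaving out single arrays moved these counts: 339 probes were higher without the third low sodium array and 355 without the first, 972 were higher and 1361 lower without the second normal sodium array, and 825 were higher without the third. Over the 11212 genes with a symbol, each valued by its brightest probe, 328 were higher (2.93%) and 556 lower (4.96%) at that level. The lowest and highest array values of the diets did not overlap for 533 genes with higher low sodium levels (4.75%) and for 778 with lower ones (6.94%). The median difference of all genes was -0.025. Every gene named below had an adjusted p between 0.50 and 0.969, so the genes are described by their levels and ordered by function, and differences at an unadjusted p below 0.05 are read against these background shares.

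Genes that stood apart most cleanly on low sodium came from unrelated functions. Adgre1, a classical surface marker of macrophages, had levels of -3.20, -3.51 and -3.16 on low sodium, against -2.25, -2.51 and -2.23 on normal sodium. Its low sodium arrays all lay below its normal sodium arrays, with a difference of -0.96 ± 0.15 and the smallest unadjusted p of any named gene (7.26e-05). Hs3st5, a sulfotransferase that adds a rare sulfate to heparan sulfate, had -3.99, -3.64 and -3.82 on low sodium, against -3.01, -3.08 and -2.77 on normal sodium. Mycn, a transcription factor of the MYC family, had -3.18, -3.32 and -2.99 on low sodium, against -1.54, -2.53 and -1.65 on normal sodium. Neither gene's diets overlapped, and their differences were -0.86 ± 0.16 and -1.26 ± 0.26. Ier5, an immediate early gene that acts on heat shock factor 1, had 0.97, 0.89 and 0.54 on low sodium, against 1.54, 1.31 and 1.49 on normal sodium, and its relative Ier5l had 0.75, 0.84 and 0.56 on low sodium, against 1.65, 1.22 and 1.30 on normal sodium. In both genes the 3 low sodium arrays lay below every normal sodium array. Prr7, a membrane adaptor of synapses and lymphocytes, had -2.94, -2.51 and -3.09 on low sodium, against -1.54, -2.17 and -1.87 on normal sodium, with a difference of -0.99 ± 0.18.

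Higher on low sodium stood Usp28, a deubiquitinase that stabilises MYC, with 2.00, 1.97 and 1.95 on low sodium, against 1.25, 1.44 and 1.47 on normal sodium. Its 3 low sodium arrays were nearly equal, all normal sodium arrays lay below them, and the difference was 0.59 ± 0.10. Clcn3, a chloride and proton exchanger of vesicles, had 0.14, 0.11 and -0.11 on low sodium, against -0.96, -0.67 and -0.85 on normal sodium. On this brighter probe the difference was 0.87 ± 0.17 with no overlap. A dimmer second probe read 0.38 ± 0.17, and the mean of both was 0.63. Bcl11b, a zinc finger transcription factor known from T cell development, had -2.41, -2.51 and -2.33 on low sodium, against -3.61, -3.55 and -2.93 on normal sodium. Its diets did not overlap either. Slc25a22, the mitochondrial glutamate carrier, had 0.87, 1.08 and 1.08 on low sodium, against 0.20, 0.67 and 0.41 on normal sodium, with a difference of 0.58 ± 0.14. Inha, which encodes the inhibin alpha subunit, had 0.66, 0.68 and 1.93 on low sodium, against -0.45, -0.36 and 0.54 on normal sodium, and in both diets the third array stood highest. Inhbb, which encodes the beta B subunit of inhibin and activin, lay the other way with -2.20, -2.20 and -1.79 on low sodium, against -1.29, -1.39 and -1.68 on normal sodium. C4a, a complement C4 gene, had 0.17, 0.50 and -0.28 on low sodium, against -0.94, -1.47 and -0.72 on normal sodium, and its diets did not overlap. Rtel1, a helicase of telomere maintenance, had -0.79, -0.15 and -0.37 on low sodium, against -2.06, -2.18 and -2.10 on normal sodium, a difference of 1.68 ± 0.63 in which every low sodium array stood above every normal sodium array.

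**Figure D1:**
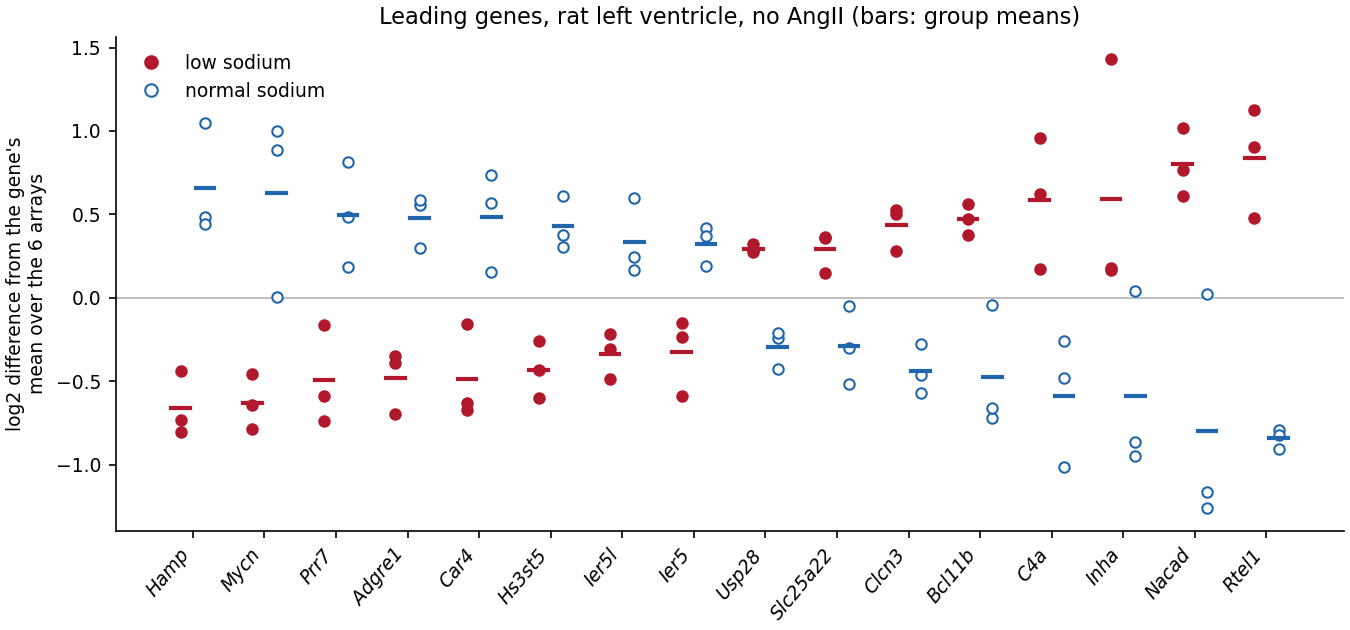
Level of 16 leading genes on each array, drawn as the log2 difference from the gene's mean over the 6 arrays (vertical axis). Filled points are the 3 low sodium arrays (left of each pair), open points the 3 normal sodium arrays (right), and bars are group means; for each gene drawn the 2 sets of points do not overlap.

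Leukocyte genes were mostly lower on low sodium, led by macrophage markers. Of 24 tested macrophage and monocyte markers (30 listed), 22 had lower means on low sodium, 10 of them at an unadjusted p below 0.05, against 4.96% of all genes, and none was higher at that level. Their median difference was -0.39, against -0.025 for all genes. On slides 1, 2 and 3 the median was -0.12, -0.62 and -0.37, and it was -0.15 without the second low sodium array. At an unadjusted p below 0.05, 4 markers were lower without the second low sodium array, 5 without the first normal sodium array and 5 without the third. Trem2, a lipid receptor of macrophages, had -1.49, -1.63 and -1.22 on low sodium, against -0.60, -0.61 and -0.041 on normal sodium, and Folr2, a folate receptor of resident cardiac macrophages, had -0.13, -0.76 and -0.20 on low sodium, against 0.69, 0.092 and 0.17 on normal sodium. Clec10a, a lectin of macrophages and dendritic cells, had -2.04, -2.25 and -2.04 on low sodium, against -1.72, -1.47 and -1.67 on normal sodium. None of these 3 genes had an array of low sodium at or above one of normal sodium. Lyz2, the bright lysozyme gene of myeloid cells, pointed the other way with 3.39, 3.04 and 2.84 on low sodium, against 1.97, 3.35 and 3.16 on normal sodium, a difference of 0.26 ± 0.32 that was -0.17 without the first normal sodium array and 0.53 without the second. In bulk tissue, fewer cells of a type and less RNA per cell cannot be told apart.

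Sensors, ligands and receptors of inflammation had mostly lower means as well, where 54.5% of all genes did. Lower were 12 of 16 Toll-like and innate sensing genes and 25 of 31 chemokine genes. The cytokine, TNF and NF-kappaB list lay nearer that share with 20 of 30, and its median of -0.11 was -0.014 in the authors' values. Tlr2, the receptor for bacterial lipoproteins, had -2.40, -2.65 and -2.40 on low sodium, against -1.65, -2.15 and -1.71 on normal sodium, and its partner Tlr6 had -2.04, -2.05 and -2.31 on low sodium, against -1.50, -1.94 and -1.63 on normal sodium. Both were lower on every low sodium array, with differences of -0.65 ± 0.14 and -0.45 ± 0.15. Tnf, the cytokine, had -2.71, -2.70 and -2.89 on low sodium, against -1.69, -2.42 and -2.21 on normal sodium, and its receptor Tnfrsf1a had -0.15, 0.011 and -0.37 on low sodium, against 0.55, 0.13 and 0.17 on normal sodium. Neither overlapped between the diets, although the second normal sodium array of Tnfrsf1a came close to the second low sodium array. Ccl6, a chemokine of rodent myeloid cells, had -0.78, -1.19 and -0.72 on low sodium, against -0.42, -0.36 and -0.34 on normal sodium, again with no overlap. At an unadjusted p below 0.05, 4 genes of the Toll-like list, 3 of the cytokine list and 4 of the chemokine list were lower, and 2 chemokine genes higher. Of all genes, 4.96% were lower and 2.93% higher at that level. Cxcl12, the stromal chemokine, was the opposite case with 2.78, 2.77 and 2.88 on low sodium, against 2.13, 2.14 and 2.44 on normal sodium on its brighter probe, but a dimmer second probe read -0.20 and the mean of both was 0.19. Ccl22 was higher as well, with -4.38, -4.43 and -4.36 on low sodium, against -4.66, -4.71 and -4.63 on normal sodium, though its difference of 0.28 ± 0.11 shrank to 0.091 after background correction by normexp.

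Lymphocyte and mast cell genes were dim but lay on the same side. Foxp3, the factor that defines regulatory T cells, had -3.55, -4.36 and -3.77 on low sodium, against -2.54, -2.86 and -3.20 on normal sodium, and Gzmk, a granzyme of cytotoxic cells, had -3.93, -4.23 and -4.39 on low sodium, against -3.11, -3.70 and -2.92 on normal sodium. Cd4 had -4.78, -5.27 and -4.58 on low sodium, against -4.17, -4.34 and -4.28 on normal sodium, and Cd3g, a chain of the T cell receptor complex, had -3.86, -4.83 and -4.01 on low sodium, against -3.65, -3.67 and -3.18 on normal sodium. For all 4 genes each low sodium array lay below each normal sodium array. Of 21 tested T, B and NK cell markers 6 were lower at an unadjusted p below 0.05 and 0 higher, against 4.96% and 2.93% of all genes. However, the list median of -0.28 became -0.062 without the third normal sodium array, -0.49 without the second and -0.54 without the first low sodium array. The lower count was 3 without the third and 10 without the second normal sodium array. Kit, the stem cell factor receptor of mast cells, had -4.57, -4.10 and -3.87 on low sodium, against -2.69, -3.54 and -3.45 on normal sodium, and Mcpt9, a mast cell protease, had -2.76, -2.72 and -2.53 on low sodium, against -2.03, -1.92 and -1.46 on normal sodium. Cma1, the chymase that can form AngII from angiotensin I, had -3.98, -3.93 and -3.89 on low sodium, against -3.38, -3.50 and -3.09 on normal sodium, again with no overlap and a difference of -0.61 ± 0.31. Among MHC class II genes RT1-Da had -0.22, -0.28 and -0.29 on low sodium, against 0.67, 0.019 and 0.33 on normal sodium, but its difference of -0.60 ± 0.21 was -0.29 after normexp, and Cd74, the invariant chain, stood at 0.11 ± 0.13.

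Fibroblast and collagen lists had medians below 0 on all 3 slides. Of 20 tested fibroblast markers 16 had lower means on low sodium, 10 at an unadjusted p below 0.05 and 9 with no overlap between diets, where 4.96% and 6.94% of all genes did so. The median difference was -0.34, with -0.32, -0.28 and -0.41 on the 3 slides. The count at an unadjusted p below 0.05 was 6 without the first low sodium array or without the third normal sodium array, and 10 without the first normal sodium array. Col1a2 and Col3a1, which encode the main fibrillar collagens of the heart, had 3.61, 3.87 and 3.45 on low sodium, against 4.08, 4.04 and 4.30 on normal sodium, and 3.17, 3.33 and 3.45 on low sodium, against 3.85, 3.54 and 3.86 on normal sodium. These are small differences, -0.50 ± 0.15 and -0.43 ± 0.12, with no overlap between the diets. Vim, the intermediate filament of mesenchymal cells, had 1.42, 1.51 and 1.81 on low sodium, against 1.86, 2.05 and 1.97 on normal sodium. The third low sodium array came closest to the normal sodium arrays. Pdgfra, the receptor that marks cardiac fibroblasts, stood at 0.083 ± 0.15 and did not share the direction.

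Matrix genes from fibril to regulator had mostly lower means as well. Mfap5, a microfibril protein, had 2.06, 2.09 and 2.21 on low sodium, against 2.45, 2.64 and 2.59 on normal sodium, and Dcn, the decorin core protein that binds collagen fibrils, had 4.42, 4.28 and 4.48 on low sodium, against 4.67, 4.70 and 4.68 on normal sodium. Aspn, a related small proteoglycan, had -2.0, -2.05 and -2.04 on low sodium, against -1.63, -1.28 and -1.47 on normal sodium. In all 3 the low sodium arrays formed a narrow band below the normal sodium arrays, with differences of -0.44 ± 0.13, -0.29 ± 0.10 and -0.57 ± 0.13. Plod2, which hydroxylates collagen lysines for cross-linking, had -2.06, -2.0 and -2.29 on low sodium, against -1.36, -1.91 and -1.62 on normal sodium, and Col16a1, a fibril-associated collagen, had -1.03, -1.07 and -1.0 on low sodium, against -0.66, -0.75 and -0.53 on normal sodium. Of all 7 tested collagens outside the fibrillar group, 7 had lower means and 4 an unadjusted p below 0.05, or 2 without the first low sodium or the third normal sodium array. Among 18 genes of fibrillar collagens and their processing 6 were lower at that level, as were 5 of 16 elastic fibre and microfibril genes and 6 of 19 proteoglycan and hyaluronan genes. Of all genes, 4.96% were lower at that level. The elastic fibre count was 2 without the second low sodium array, and the proteoglycan count 3 without the third. The proteoglycan list also held 1 higher gene, Has2, a hyaluronan synthase, with -5.82, -7.22 and -6.26 on low sodium, against -8.31, -7.40 and -6.80 on normal sodium. Has2 was dim, well above background on 2 low sodium arrays and 1 normal sodium array, its diets overlapped, and its difference of 1.07 ± 0.45 was 0.045 after normexp. Cd44, the hyaluronan receptor, had -1.82, -1.82 and -1.98 on low sodium, against -0.75, -1.26 and -1.33 on normal sodium, but the mean of its probes was -0.41. The proteoglycan median of -0.18 was -0.042 without the first normal sodium array.

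Inhibitors of proteases split. Timp1, an inhibitor of matrix metalloproteinases that rises in fibrosis, had -0.19, -0.27 and -0.11 on low sodium, against 0.37, 0.33 and 0.36 on normal sodium, while Timp4, a family member strongly expressed in the heart, had 1.66, 1.22 and 1.47 on low sodium, against 0.42, 1.27 and 0.34 on normal sodium. The diets did not overlap for Timp1 (-0.55 ± 0.16), whereas for Timp4 (0.77 ± 0.27) the second normal sodium array lay within the low sodium range. Serpine2, a protease inhibitor bound to the cell surface, had -1.57, -1.46 and -1.35 on low sodium, against -0.80, -1.01 and -1.17 on normal sodium, with no overlap. Bambi, a decoy receptor for TGF-beta family ligands, had -0.54, -0.60 and -0.48 on low sodium, against 0.035, -0.16 and -0.13 on normal sodium. Tgfb1 itself stood at -0.26 ± 0.26, or -0.065 without the first low sodium array, with overlapping diets. Of 28 TGF-beta and BMP signalling genes 2 were lower at an unadjusted p below 0.05, against 4.96% of all genes. Postn and Ccn2, which activated fibroblasts make in quantity, stood at -0.29 ± 0.21 and -0.31 ± 0.40, both overlapping, and Ccn2 at -0.038 without the second normal sodium array.

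**Figure D2:**
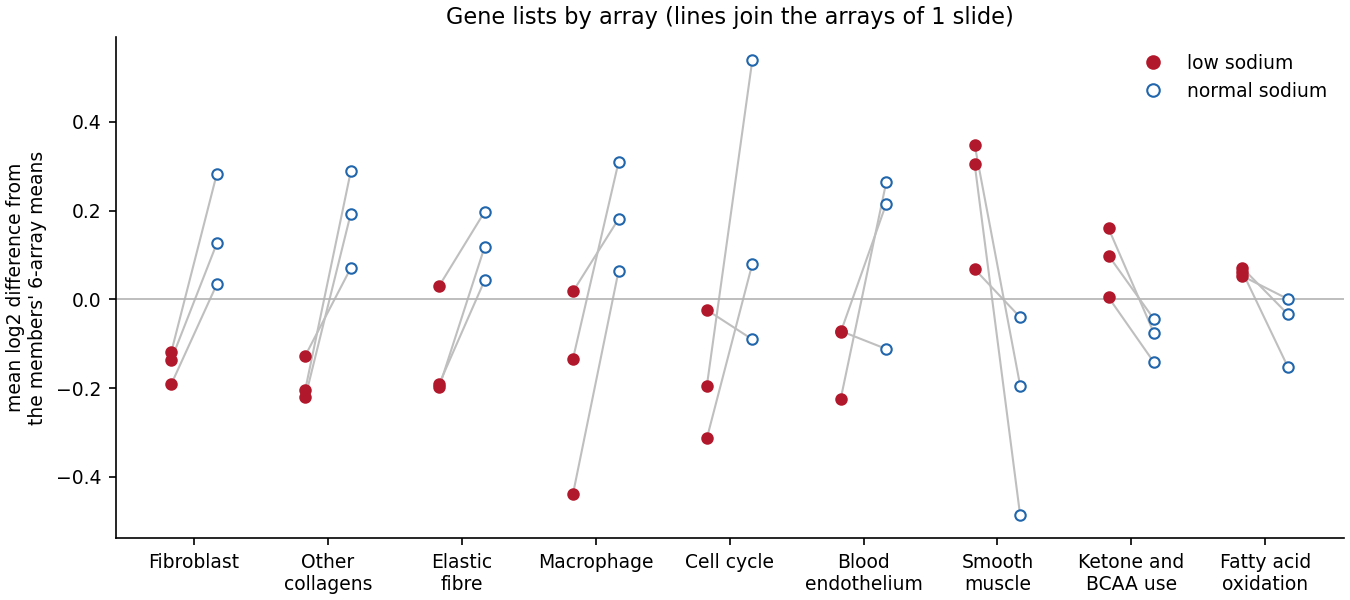
Mean level of 9 gene lists on each array, as the log2 difference from each member's mean over the 6 arrays, averaged over the tested members (vertical axis). Filled points are low sodium arrays, open points normal sodium arrays, and lines join the 2 arrays of 1 slide. The fibroblast and macrophage points lie lower on low sodium on all 3 slides. The cell cycle and blood endothelial points lie lower on slides 1 and 3 but slightly higher on slide 2.

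Endothelial and smooth muscle lists of the vessel wall had medians on opposite sides of 0. Car4, the carbonic anhydrase on the surface of capillary endothelium, had 1.42, 1.94 and 1.46 on low sodium, against 2.66, 2.25 and 2.83 on normal sodium, with a difference of -0.97 ± 0.18, the largest in its list. Of 22 tested blood endothelial markers 19 had lower means, against 54.5% of all genes. At an unadjusted p below 0.05, 5 were lower, against 4.96% of all genes. The median was -0.26, with -0.41, 0.019 and -0.30 on slides 1, 2 and 3. In the other direction 1 marker had an unadjusted p below 0.05, Rgcc, a regulator of the cell cycle, with -1.05, -0.49 and -1.26 on low sodium, against -2.50, -1.58 and -1.15 on normal sodium. The third normal sodium array lay within the low sodium range, and the difference of 0.81 ± 0.31 was 0.43 without the first normal sodium array. Without the first normal sodium array the median was -0.17 and 1 marker was lower at that level, against 2 without the first low sodium array, 3 without the third normal sodium array and 9 without the second. Pecam1, the adhesion molecule of endothelium, stood at -0.21 ± 0.11. Lyve1 and Pdpn, markers of lymphatic endothelium, had -1.73, -2.32 and -1.83 on low sodium, against -1.55, -1.11 and -1.68 on normal sodium, and -1.10, -1.75 and -1.60 on low sodium, against -0.84, -0.98 and -0.58 on normal sodium. Both were lower without overlap, but the mean of the Pdpn probes was -0.26. Of 9 tested lymphatic endothelial markers 6 had lower and 3 higher means. The list median of -0.50 was -0.013 on slide 2. It was -0.13 without the first low sodium array and -0.23 without the third normal sodium array. Adm, the vasodilator peptide adrenomedullin, had 0.50, 0.58 and 0.33 on low sodium, against 1.08, 0.74 and 1.13 on normal sodium, again with every low sodium array below every normal sodium array. Tbxas1, thromboxane synthase, had -2.32, -3.15 and -2.83 on low sodium, against -2.07, -2.05 and -2.26 on normal sodium, and Hpgd, which degrades prostaglandins, had -5.77, -5.38 and -5.76 on low sodium, against -4.68, -4.66 and -4.84 on normal sodium.

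Among 14 tested smooth muscle markers 11 had higher means on low sodium, 4 at an unadjusted p below 0.05, against 2.93% of all genes. Acta2, smooth muscle actin, had -0.53, -0.67 and -0.51 on low sodium, against -1.08, -1.26 and -0.92 on normal sodium, and Myh11, smooth muscle myosin, had 1.12, 1.06 and 0.96 on low sodium, against 0.35, 0.50 and 0.72 on normal sodium. Tpm2, a tropomyosin of smooth and skeletal muscle, had 1.00, 0.86 and 0.72 on low sodium, against -0.68, 0.49 and 0.60 on normal sodium, so that its first normal sodium array stood far below the rest. None of these 3 overlapped, and the differences were 0.51 ± 0.20, 0.52 ± 0.23 and 0.72 ± 0.32, but 0.31 for Tpm2 without the first normal sodium array. The list median was 0.45, but 0.18 after normexp and 0.30 without the first normal sodium array. At an unadjusted p below 0.05, 1 marker was higher without that array or without the first low sodium array, and 2 without the second or the third low sodium array. Myocd, the coactivator that drives smooth muscle genes, did not share the direction, with a difference of -0.18 ± 0.25, and Cald1 stood at -0.086 ± 0.12.

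Among hormone and iron genes, Hamp stood apart by diet, while the iron, haem and red cell list was split. Of 21 tested genes of that list 9 had higher and 12 lower means. Hamp, which encodes hepcidin, the hormone that closes the iron exporter ferroportin and is also made by cardiomyocytes, had -1.31, -1.38 and -1.02 on low sodium, against 0.47, -0.10 and -0.13 on normal sodium. The highest low sodium array lay 0.88 log2 units below the lowest normal sodium array, and the difference was -1.32 ± 0.28. Cp, which encodes the ferroxidase ceruloplasmin, had -2.13, -2.23 and -1.87 on low sodium, against -1.66, -1.58 and -1.76 on normal sodium, lower on each low sodium array. Hmox1, which degrades haem, had -1.15, -1.85 and -2.33 on low sodium, against -1.06, -1.01 and -0.91 on normal sodium, in which the 3 normal sodium arrays were close together and the low sodium arrays spread below them.

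The upstream windows of Hamp and of the natriuretic peptide genes are shown because these 3 genes encode secreted cardiac hormones with lower means on low sodium. The windows hold the 250 bases before the annotated start, 5′ to 3′ on the strand of the gene, from RefSeq (GRCr8), and all 3 genes were matched by symbol. Each window was searched on both strands for 5 motifs, whose matches are in capitals and do not overlap. GGCGCC is the core of the site that BMP signalling uses at the mouse and human Hamp genes, TTCTTGGAA is a STAT-type motif, GGAATG holds the MCAT letters read on the opposite strand, and TGATAA and AGATAA are GATA-type motifs. Hamp (chr1:95300272-95300521, minus strand) held AGATAA on its opposite strand, GGCGCC and TTCTTGGAA, in that order. Nppb (chr5:163699758-163700007, plus strand) held GGAATG, then TGATAA and AGATAA, and Nppa (chr5:163711934-163712183, plus strand) TGATAA.
Hamp: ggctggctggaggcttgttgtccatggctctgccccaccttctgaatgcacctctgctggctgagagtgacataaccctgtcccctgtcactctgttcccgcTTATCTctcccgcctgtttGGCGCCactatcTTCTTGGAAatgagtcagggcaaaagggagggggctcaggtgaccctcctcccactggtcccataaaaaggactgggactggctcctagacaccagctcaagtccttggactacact
Nppb: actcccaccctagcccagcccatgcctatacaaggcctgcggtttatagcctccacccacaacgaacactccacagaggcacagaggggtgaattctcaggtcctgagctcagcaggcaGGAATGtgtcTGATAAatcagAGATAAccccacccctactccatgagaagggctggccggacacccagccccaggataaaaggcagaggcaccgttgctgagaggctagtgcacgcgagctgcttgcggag
Nppa: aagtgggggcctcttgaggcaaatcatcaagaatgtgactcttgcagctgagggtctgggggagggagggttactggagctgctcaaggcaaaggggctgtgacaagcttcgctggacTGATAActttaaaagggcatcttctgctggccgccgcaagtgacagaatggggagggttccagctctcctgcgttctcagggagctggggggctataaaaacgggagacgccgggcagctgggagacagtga
In the same windows of all 33469 genes of the table, 0.469% held TTCTTGGAA, 8.69% GGCGCC, 12.1% GGAATG, 7.97% TGATAA and 10.3% AGATAA. In Hamp the matches began 148, 129 and 117 bases before the start, in Nppb 131, 121 and 110 bases before it, and in Nppa 132 bases before it. The annotated starts of Nppb and Nppa lie 12176 bases apart. A match describes letters in the window and was not tied to any factor here.

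Nppa and Nppb encode the atrial and B-type natriuretic peptides. Nppb had 3.44, 3.55 and 2.82 on low sodium, against 3.91, 4.87 and 3.54 on normal sodium, and Nppa had -0.074, 0.059 and -1.38 on low sodium, against 2.00, 2.38 and -0.61 on normal sodium. For both, the first normal sodium array stood above all 3 low sodium arrays, and so did the second, while the third normal sodium array lay within the low sodium range. Their differences were -0.84 ± 0.35 and -1.72 ± 0.82. Without the second normal sodium array they were -0.46 and -1.16, and without the third the Nppa difference was -2.66. Other atrial genes also varied between arrays, with overlapping diets: Sln, sarcolipin, had 0.84, -1.67 and 2.14 on low sodium, against -1.69, -0.0055 and -2.62 on normal sodium, and Myl7, the atrial light chain, had -0.038, -2.18 and 0.081 on low sodium, against -1.03, -0.63 and -2.98 on normal sodium. Of 12 atrial markers 10 were tested, their mean level relative to the 6-array mean ran from -0.11 to 0.22 on low sodium and from -0.61 to 0.24 on normal sodium, and Bmp10 was not among those tested. Their part in the Nppa difference was not tested.

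Around the peptides, the receptor and the processing enzyme lay apart. Npr1, the receptor that turns both peptides into cyclic GMP, had 0.45, 1.01 and 0.51 on low sodium, against 1.43, 0.99 and 1.15 on normal sodium, and Corin, the protease that cleaves the Nppa precursor, had 0.55, -0.33 and 0.26 on low sodium, against -1.0, 0.21 and -1.30 on normal sodium. Npr1 stood at -0.53 ± 0.17 and Corin at 0.85 ± 0.36, with 0.55 for Corin without the third normal sodium array and 1.31 without the second, and in both the second array of each diet crossed into the other diet's range. Atp6ap2, the prorenin receptor, had -1.43, -1.30 and -1.18 on low sodium, against -2.15, -1.43 and -1.61 on normal sodium, with the second normal sodium array level with the first low sodium array. Its difference of 0.43 ± 0.17 was 0.21 without the first normal sodium array. Ace and Agtr1a, the converting enzyme and the main AngII receptor, stood at -0.19 ± 0.18 and -0.091 ± 0.12. Of 14 tested natriuretic peptide genes 11 had lower means, as had 9 of 13 renin, angiotensin and aldosterone genes, against 54.5% of all genes. The list medians were -0.17 and -0.16, or -0.059 and -0.048 in the authors' values. At an unadjusted p below 0.05, 2 natriuretic peptide genes were lower and 1 higher. In the renin, angiotensin and aldosterone list 1 was lower and 1 higher. Of all genes, 4.96% were lower and 2.93% higher at that level.

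**Figure D3:**
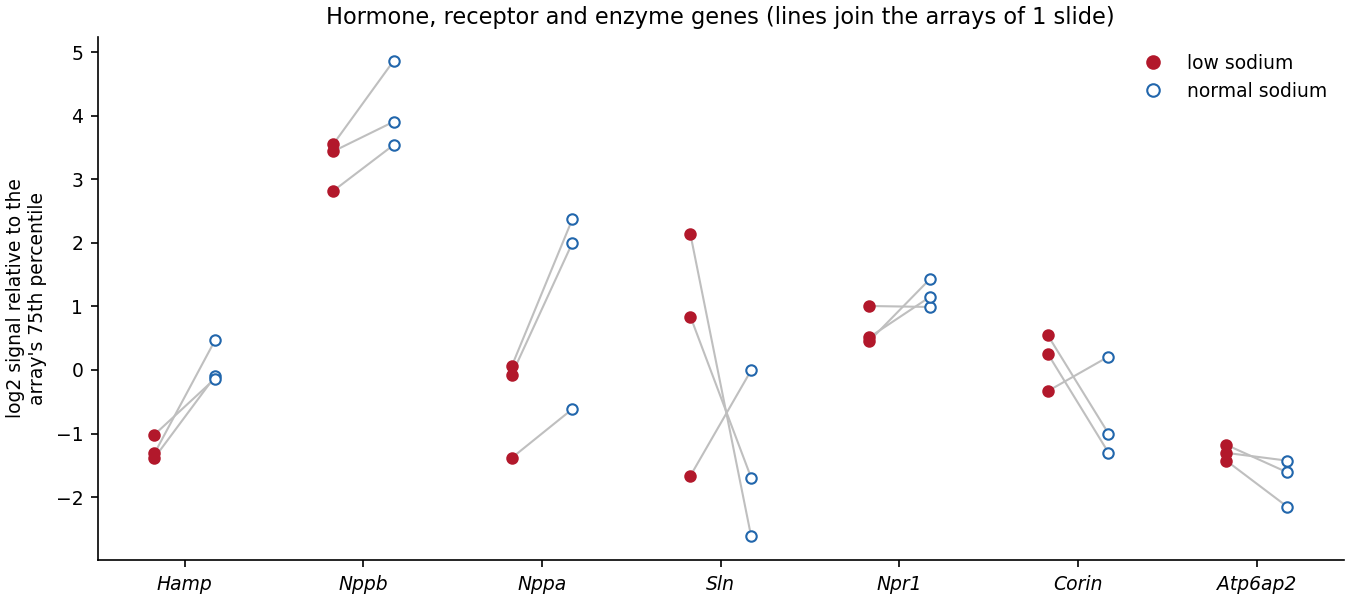
Level of Hamp, Nppb, Nppa, Sln, Npr1, Corin and Atp6ap2 on each array (vertical axis, log2 signal relative to the array's 75th percentile), with low sodium (filled) left of normal sodium (open). Lines join the 2 arrays of 1 slide: Hamp lies lower on low sodium on all 3 slides, and Sln spreads over 3.80 log2 units within low sodium alone.

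Genes of ion transport included a few of the clearest higher values. Slc4a3, an anion exchanger of cardiomyocytes that extrudes bicarbonate, had 4.28, 4.14 and 4.18 on low sodium, against 3.95, 3.65 and 3.76 on normal sodium, and the diets stood apart. Cacna1c, the pore of the L-type calcium channel, had 1.04, 0.74 and 0.96 on low sodium, against 0.63, 0.52 and 0.51 on normal sodium, Abcc9, the sulfonylurea receptor of cardiac potassium channels, had 2.79, 2.97 and 2.92 on low sodium, against 2.48, 2.30 and 2.71 on normal sodium, and Kcnj12, an inward rectifier, had -0.64, -0.99 and -0.70 on low sodium, against -1.35, -1.07 and -1.15 on normal sodium. The differences were 0.41 ± 0.11 for Slc4a3, 0.36 ± 0.12 for Cacna1c, 0.39 ± 0.15 for Abcc9 and 0.41 ± 0.16 for Kcnj12. Against them Kcne1, the beta subunit of the slow delayed rectifier, had -5.46, -5.33 and -4.80 on low sodium, against -4.77, -2.54 and -4.18 on normal sodium, a dim gene whose second normal sodium array stood far above the rest. At an unadjusted p below 0.05, 3 of 26 sodium, chloride and proton transport genes were higher and 0 lower. Of 20 potassium channel genes 3 were higher and 1 lower at that level, and of 22 calcium handling genes 1 and 0. The share of all genes was 2.93% higher and 4.96% lower. The medians of these lists, in the same order, were 0.056, 0.017 and 0.026.

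The adrenergic list was evenly split, with 12 higher and 12 lower means. Among its members Pde4b and Pde4d, phosphodiesterases that break down cyclic AMP, had -2.74, -2.66 and -2.63 on low sodium, against -3.09, -2.95 and -2.97 on normal sodium, and -1.15, -1.36 and -1.15 on low sodium, against -2.22, -1.51 and -1.49 on normal sodium. Both were without overlap, with differences of 0.33 ± 0.11 and 0.52 ± 0.19, but 0.28 for Pde4d without the first normal sodium array. The whole list held 4 higher and 1 lower of 24 tested genes at an unadjusted p below 0.05, against 2.93% and 4.96% of all genes. Its median was -0.014.

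Genes of fatty acid oxidation and of ketone and branched-chain amino acid use had mostly slightly higher means on low sodium. Of 33 fatty acid oxidation genes 27 had higher means, 4 at an unadjusted p below 0.05, where 45.5% and 2.93% of all genes did so, with a median of 0.12. That count of 4 was 0 without the first or the third low sodium array, 1 without the second, and 2 without the first or the second normal sodium array. Of 21 genes of ketone and branched-chain amino acid use 16 had higher means and 5 did not overlap between the diets, against 4.75% of all genes; their median was 0.26, and 0.17 without the first normal sodium array. Ech1, an isomerase of unsaturated fatty acid oxidation, had 5.58, 5.58 and 5.69 on low sodium, against 5.36, 5.31 and 5.29 on normal sodium, and Oxct1, which activates ketone bodies, had 6.06, 6.17 and 5.95 on low sodium, against 5.81, 5.78 and 5.75 on normal sodium. Bckdk, the kinase that shuts branched-chain ketoacid oxidation, had 2.78, 2.83 and 3.01 on low sodium, against 2.64, 2.38 and 2.65 on normal sodium, and Pccb, a subunit of propionyl-CoA carboxylase, had 3.00, 2.78 and 3.08 on low sodium, against 2.44, 2.75 and 2.63 on normal sodium. Their differences of 0.28 to 0.34 separated all arrays. The fatty acid oxidation median was 0.065 without the second low sodium array and 0.075 without the second normal sodium array. Of 25 tricarboxylic acid cycle genes 17 had higher means, with a median of 0.087. Respiratory complexes II to V lay nearer the share of all genes, with 22 of 40 and a median of 0.023.

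Lpl, the lipase that frees fatty acids from circulating lipoproteins, had 4.19, 4.24 and 3.88 on low sodium, against 3.29, 3.65 and 3.44 on normal sodium, and Agpat3, an acyltransferase of phospholipid synthesis, had 1.19, 1.27 and 1.19 on low sodium, against 0.52, 0.72 and 0.72 on normal sodium. Both were higher on every low sodium array, with differences of 0.64 ± 0.18 and 0.56 ± 0.18. They belong to a list of fatty acid uptake and triglyceride turnover that did not share their direction: of 26 tested genes 11 had higher and 15 lower means, with a median of -0.051. Angptl4, an inhibitor of Lpl, also had higher levels, 0.64, 1.34 and 0.77 on low sodium, against -0.10, -0.05 and -1.21 on normal sodium, but with an SE of 0.79 on a difference of 1.37. Fh and Mdh2, enzymes of the tricarboxylic acid cycle, had 5.36, 5.40 and 5.33 on low sodium, against 5.11, 5.12 and 5.22 on normal sodium, and 4.89, 4.89 and 5.08 on low sodium, against 4.40, 4.68 and 4.83 on normal sodium, both above the normal sodium arrays. Pfkm, the phosphofructokinase of muscle, had 4.80, 4.78 and 4.89 on low sodium, against 4.51, 4.64 and 4.55 on normal sodium. It was the 1 gene of 30 in glucose uptake and glycolysis at an unadjusted p below 0.05, where 2.93% of all genes were higher. Txn2 and Prdx3, which remove peroxide in the mitochondrion, had 2.96, 2.97 and 3.21 on low sodium, against 2.48, 2.49 and 2.65 on normal sodium, and 4.38, 4.35 and 4.34 on low sodium, against 3.91, 4.18 and 4.25 on normal sodium. Fbp2, the fructose bisphosphatase of muscle, was the largest lower value among carbohydrate genes, with -1.87, -1.42 and -2.01 on low sodium, against 1.43, -1.58 and 0.66 on normal sodium. Its second normal sodium array lay among the low sodium arrays, so the difference of -1.94 ± 0.78 rests on the first and the third normal sodium array.

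Genes that corticosteroids induce in heart and other tissues held several higher values. Klf15, a transcription factor of amino acid and lipid use, had 1.94, 1.84 and 1.98 on low sodium, against 0.85, 1.71 and 1.43 on normal sodium, and Ddit4, an inhibitor of mTORC1, had 0.72, 1.95 and 1.23 on low sodium, against 0.63, 0.41 and 0.38 on normal sodium. Cebpd, a transcription factor of acute responses, had 1.43, 1.84 and 1.5 on low sodium, against 1.18, 1.03 and 1.09 on normal sodium, and Txnip, which binds thioredoxin and limits glucose uptake, had 1.45, 2.31 and 1.97 on low sodium, against 0.18, 0.90 and 1.57 on normal sodium. The first 3 did not overlap between the diets, with differences of 0.59 ± 0.18, 0.83 ± 0.26 and 0.49 ± 0.20, but 0.35 for Klf15 without the first normal sodium array and 0.50 for Ddit4 without the second low sodium array. Txnip crossed only at the third normal sodium array. Of 24 tested members 14 had higher means, against 45.5% of all genes. At an unadjusted p below 0.05, 5 were higher and 1 lower, where 2.93% and 4.96% of all genes were. Without the first normal sodium array these counts were 3 and 0. The list median of 0.12 became 0.19 without that array and 0.24 without the third normal sodium array. Mt1, metallothionein, went the other way at -1.28 ± 0.62, with overlap, and at -0.67 without the first normal sodium array. Of the clock genes, Bmal1 stood higher with 1.25, 1.01 and 1.31 on low sodium, against 0.82, 0.96 and 0.56 on normal sodium, and Tef lower with 0.72, 0.65 and 0.68 on low sodium, against 1.03, 1.04 and 0.91 on normal sodium.

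Proliferation genes had lower means on low sodium, with a difference between slides. Of 43 cell cycle and mitosis genes 35 had lower means and 10 did not overlap, against 54.5% and 6.94% of all genes. However, 3 were lower at an unadjusted p below 0.05, against 4.96% of all genes. The median was -0.50 on slide 1, 0.025 on slide 2 and -0.63 on slide 3, and -0.19 without the third normal sodium array. Without the second normal sodium array 8 of the genes were lower at an unadjusted p below 0.05, and without the second low sodium array 5. Cdk6, a kinase of G1 phase, had -4.93, -4.45 and -4.34 on low sodium, against -3.89, -3.77 and -3.85 on normal sodium, and Plk2, a polo-like kinase that p53 induces, had -2.60, -2.40 and -2.23 on low sodium, against -1.60, -1.84 and -1.65 on normal sodium. Bax, which opens the mitochondrial outer membrane in apoptosis, had -0.99, -0.92 and -0.92 on low sodium, against -0.36, -0.75 and -0.58 on normal sodium. All 3 were lower on each low sodium array, with differences of -0.74 ± 0.15, -0.71 ± 0.16 and -0.38 ± 0.11. The growth factor genes Fgf16 and Hbegf lay on the same side: Fgf16, a cardiac growth factor, had -2.59, -2.72 and -2.61 on low sodium, against -1.72, -1.77 and -2.27 on normal sodium, and Hbegf, an EGF receptor ligand, had -3.71, -4.34 and -4.24 on low sodium, against -3.28, -3.79 and -3.06 on normal sodium, with a narrow crossing of the diets.

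**Figure D4:**
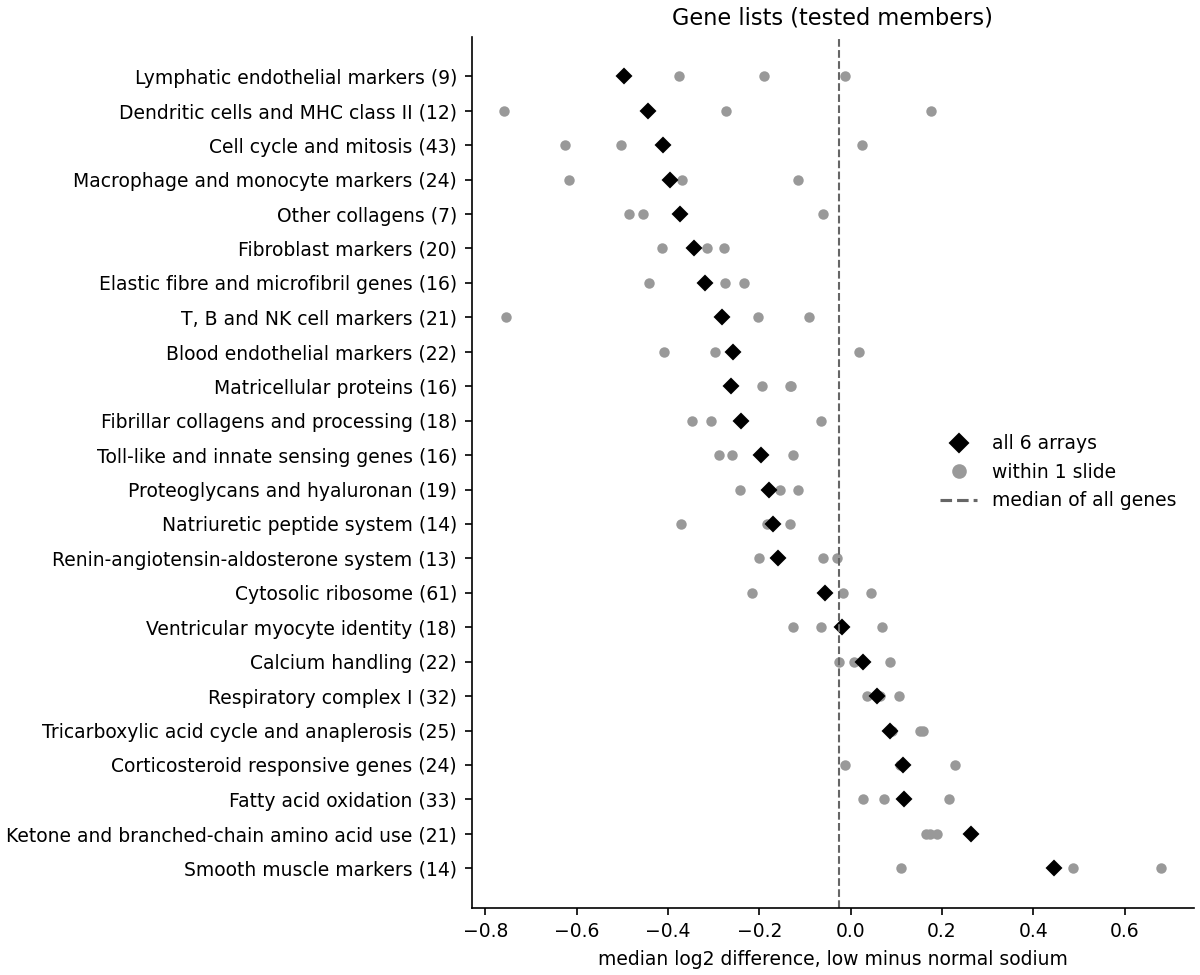
Median log2 difference, low minus normal sodium, of 24 gene lists (horizontal axis), each with its median over all 6 arrays (diamond) and its median on each of the 3 slides (dots). The dashed line is the median of all genes at -0.025; fibroblast, collagen and elastic fibre lists lie left of it on every slide and the ketone and branched-chain amino acid list right of it on every slide.

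A few large differences rested on 1 array. Rnf126, a ubiquitin ligase, had 0.42, 0.13 and 0.53 on low sodium, against 0.56, 1.81 and 4.65 on normal sodium, and Lipn, a lipase, had -5.56, -6.10 and -6.01 on low sodium, against -4.86, -5.19 and -2.0 on normal sodium. In both, the third normal sodium array alone stood far above the rest, and without it the differences of -1.98 and -1.87 were -0.82 and -0.86. Nacad, a protein with a domain of the nascent chain complex, had -1.76, -1.92 and -1.51 on low sodium, against -3.79, -3.69 and -2.51 on normal sodium, where the third normal sodium array was the closest to low sodium. Without that array its difference of 1.60 was 2.01, with an adjusted p of 0.0214 by limma in that fit, the only probe below 0.05 there. Without the second normal sodium array 1 probe of Lmbrd1, a gene of lysosomal cobalamin export, had an adjusted p of 0.0171; this gene was named after its value was seen.

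Some dim genes were detected on 1 diet only. Gabrb1, a receptor subunit for GABA, and Cth, which forms cysteine and hydrogen sulfide, were well above background on 3 low sodium arrays and on 0 normal sodium arrays. The low sodium mean of Gabrb1 lay 2.11-fold above the lowest detected signal of the normal sodium arrays, and that of Cth 2.25-fold. Adjusted p was 0.6 and 0.637 in limma. Both genes were chosen by these detection calls, so the folds are no separate evidence. Their fitted differences of 2.38 and 1.86 were 0.32 and 0.22 after normexp, so the folds depend on background correction. The share of probes well above background was 69.9%, 66.3% and 76.3% on the low sodium arrays. It was 67.7%, 63.2% and 73.5% on the normal sodium arrays of the same slides. The part of this in the detection calls was not tested.

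Several genes had like differences between the same diets under AngII infusion. The AngII pair shares no array with the uninfused pair, and 0 probes passed an adjusted p below 0.05 for the diet under AngII or for the difference between the 2 diet effects (smallest adjusted p 0.553, limma), while 1002 probes (5%) had an unadjusted p below 0.05 for that difference. Hamp stood at -1.32 ± 0.28 without and -1.23 ± 0.28 with AngII, Mycn at -1.26 ± 0.26 and -1.14 ± 0.26, Plk2 at -0.71 ± 0.16 and -0.70 ± 0.16, and Nppb at -0.84 ± 0.35 and -1.44 ± 0.35. For these 4 the difference between the effects had unadjusted p of 0.829, 0.749, 0.947 and 0.249. Klf15 had 0.59 ± 0.18 and 0.55 ± 0.18 and Slc4a3 0.41 ± 0.11 and 0.36 ± 0.11, so both had the same sign in both pairs.

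Other genes took another sign under AngII. Clcn3 stood at 0.87 ± 0.17 without and -0.12 ± 0.17 with AngII, Lpl at 0.64 ± 0.18 and -0.15 ± 0.18, and Acta2 at 0.51 ± 0.20 and -0.27 ± 0.20. The Clcn3 values are those of its brighter probe. Foxp3 had -1.03 ± 0.29 and 0.57 ± 0.29, and Hs3st5 -0.86 ± 0.16 and 0.21 ± 0.16. Irf7, a master regulator of the interferon response, had 1.92, 2.11 and 0.99 on low sodium, against 1.03, 0.19 and 0.79 on normal sodium, with the third low sodium array below the first normal sodium array, and stood at 1.00 ± 0.29 without and -0.71 ± 0.29 with AngII. Hbb-b1 and Alas2, red cell genes that encode beta globin and the haem synthesis enzyme of erythroid cells, stood at 0.41 ± 0.15 and 0.65 ± 0.26 without AngII and at -0.38 ± 0.15 and -0.76 ± 0.26 with it, and their part in other results was not tested. Without the first low sodium array the uninfused values were 0.26 for Hbb-b1 and 0.39 for Alas2. Unadjusted p for the difference between the effects was 0.00184 for Clcn3, 0.0103 for Lpl, 0.0185 for Acta2, 0.00266 for Foxp3, 0.000788 for Hs3st5, 0.00167 for Irf7, 0.00327 for Hbb-b1 and 0.00293 for Alas2, and none passed adjustment. Plcd4, a phospholipase C, had the smallest such p of all genes (2.87e-05), with -0.16 ± 0.16 without and 1.37 ± 0.16 with AngII.

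List medians of the pairs were as follows. The fibroblast median was -0.34 without and -0.25 with AngII, the macrophage median -0.39 and -0.54, and the cell cycle median -0.41 and -0.54. The smooth muscle median was 0.45 without and -0.10 with AngII, and the fatty acid oxidation median 0.12 and -0.041. The ketone and branched-chain amino acid median was 0.26 and 0.08, and the interferon response median 0.20 and -0.58. The last list differed between slides in the uninfused pair, at 0.00099, 0.77 and -0.14. Under AngII, 8 fibroblast markers and 13 macrophage markers were lower at an unadjusted p below 0.05, where 8.29% of all genes were.

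**Figure D5:**
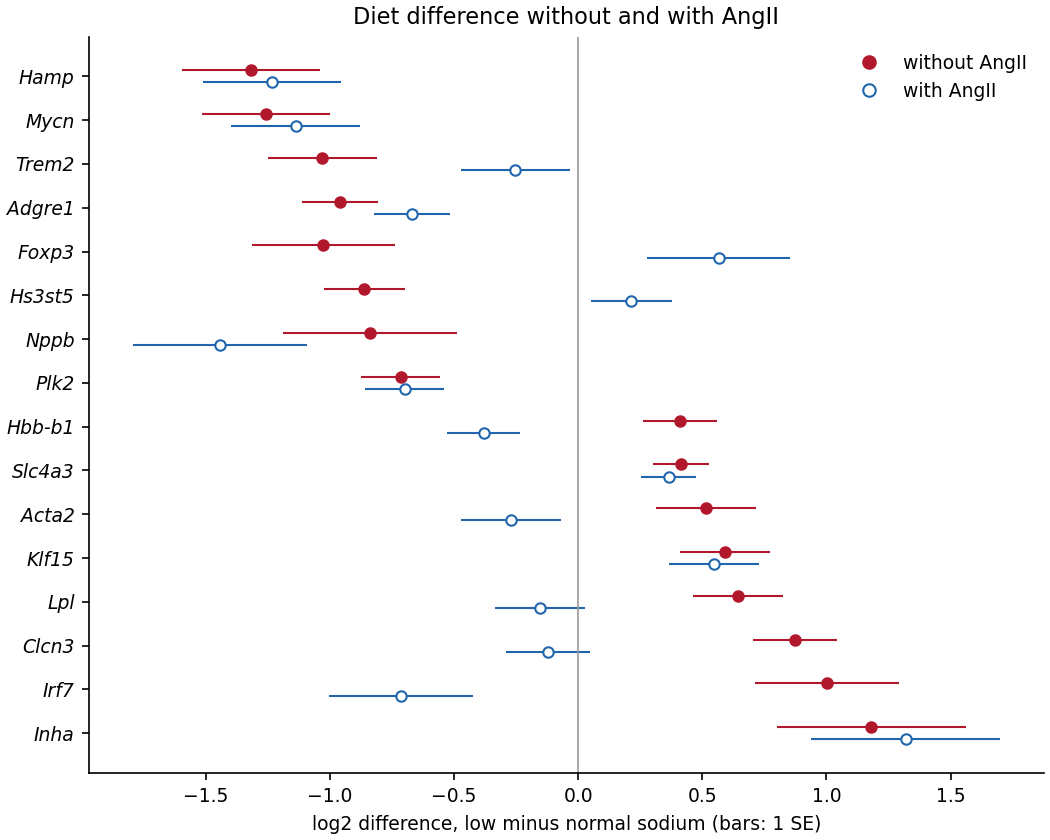
Log2 difference, low minus normal sodium, of 16 named genes without AngII (filled) and with AngII (open), with bars of 1 SE (horizontal axis). Hamp, Mycn and Plk2 lie left of 0 in both pairs, whereas Clcn3, Lpl, Irf7 and Hbb-b1 lie right of 0 without AngII and left of it with AngII.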

How the data were processed

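RNA was measured on one-colour Agilent arrays, 3 for each of 4 groups, assigned by their titles. The deposited scanner files hold spot intensity on a linear scale, extracted with Agilent Feature Extraction 10.7.3.1 per the file headers; the submitters' processing notes give Feature Extraction 11.0.1.1, R 3.3.04 and limma. The authors' deposited value table holds log2 values of 20438 probes and served as an alternative. Its Spearman correlation with the scanner signal of the same array was at least 0.9956 and its column medians ran from 8.81 to 8.95; its background correction and centring are not given in the sources used here.

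The 1377 control spots were left out, leaving 42877 spots, of which those marked as outliers or non-uniform were left out on each array. The processed signal was turned into log2 and averaged over the spots of each of 30367 probes. The array's 75th percentile was then subtracted. Tests were kept to the 20022 probes with at least 0.5 of their spots well above background on every array of any 1 group. Limma 3.58.1 in R 4.3.3 was fitted over all 12 arrays, with Benjamini-Hochberg adjustment and a threshold of 0.05; 60 tested probes lacked a value on some array and were fitted without it. Symbols came from RefSeq (GRCr8), matched through the transcript named for each probe in the scanner files: 18758 probes had 1 symbol and 11609 none. Where several probes shared a symbol, the brightest one gave the value. The fit was tested on simulated data. The number of arrays limits the precision of every value.

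The 81 gene lists (2042 genes, 1730 tested) and the genes named were chosen with earlier results of these data known. The text draws on the 12 genes with the smallest p in each direction, the 6 with the largest non-overlapping difference that held after normexp and in the authors' values, up to 4 members of each list by p and up to 2 against its direction, fixed cardiac genes and cell type markers, genes detected on 1 diet only, and the 4 in each direction whose diet effect differed most, by p, between uninfused and infused rats. Some genes that this rule would name are not reported here. Replicate numbers coincided with slides, so the numbers pair the arrays by slide. Same-numbered arrays deviated together from their group means (r 0.333, 0.164 and 0.228, against -0.221 to 0.0657 for different numbers). Deviations from a group mean cancel within the group, so the r for different numbers are not independent of the others. The main fit left this pairing out, and the replicate block took it in. Alternatives were normexp (offset 50), quantile normalization, the authors' values, no filter on dim probes, only the 6 uninfused arrays, the replicate block, array weights, the mean of a gene's probes and leaving out each array.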

Additional observations from a re-analysis of the deposited data

How the results depend on the processing

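At an adjusted p below 0.05 (limma) 0 probes passed under every alternative except when single arrays were left out, where the count ran from 0 to 1, with 1 probe without the second normal sodium array (Lmbrd1) and 1 without the third (Nacad). The smallest adjusted p was 0.262 after normexp, 0.397 after quantile normalization, 0.464 in the authors' values, 0.0649 with no filter on dim probes, 0.868 in the 6 uninfused arrays alone, 0.177 with the replicate block and 0.218 with array weights, against 0.50. At an unadjusted p below 0.05 the other alternatives gave 392 to 761 higher and 601 to 1258 lower probes, and leaving out single arrays 339 to 972 higher and 602 to 1361 lower probes. With the replicate block, which pairs the arrays of a slide, 694 probes were higher and 1021 lower, 0 passed adjustment, and no call changed. For the difference between the diet effects without and with AngII, 0 probes passed under any alternative; these were added after the data were seen, and the 6 uninfused arrays alone give no value for it. Of 123 genes named, 116 kept their direction in all 14 alternatives, except that Has2 did not pass the filter on the 6 uninfused arrays alone and has no value there. The reversed values were -0.046 (normexp) and -0.032 (authors' values) for Cd74, -0.017 (array weights) for Pdgfra, and 0.031 for Postn in the authors' values. For Tnni3 they were 0.11 (quantile normalization), and 0.016 (array weights), and for Tnnt2 0.088 (quantile normalization). Without single arrays, Lyz2 ran from -0.17 (first normal sodium array left out) to 0.53, Myl3 from -0.021 (the third normal sodium array) to 0.16, Pdgfra from -0.052 (first normal sodium array) to 0.17, and Tnni3 from -0.096 to 0.031 (second normal sodium array). The cause of these moves was not tested. Of 1134 list medians under alternatives, 115 moved by more than the spread between replicates. Dim probes limit the rest: Gabrb1 and Cth kept little of their difference after normexp.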
